A study of Homo sapiens with 12 samples.

Results

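The respiratory chain genes described here are 27 nuclear genes placed by their symbols in complexes III to V. All were followed in HuH-7, an established human hepatocyte-derived carcinoma cell line, on a whole-transcript array. Of these, 26 were every gene with a fitting symbol (NDUF, SDH, UQCR, CYC1, COX4 to COX8 or ATP5) in the annotation table of the platform, out of 14884 genes that it names. The remaining gene, ATP5D, was added by its probe set (a group of array probes read out as 1 value) because the study had named it. No symbol of complex I or complex II fitted the rule in that table, so those complexes were not analysed here. Complex III was represented by 6 genes, complex IV by 17 and complex V by 4, against 10, 17 and 19 fitting protein-coding symbols in RefSeq. Assembly factors, pseudogenes and antisense or divergent transcripts, 9 symbols in all, were kept out of the 27. The rule goes by symbol, so it kept ATP5IF1, which blocks complex V, and COX7A2L, which takes part in joining complexes III and IV.

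For 72 h, cells were exposed to a transfected oligonucleotide acting as miR-1908-5p (the mimic) or with a hairpin that binds it (the inhibitor), each beside a control oligonucleotide of its own kind carrying the dye Dy547. The labels give 9 nM for the oligonucleotides and the study's methods 10 nM. Each of the 4 groups held 3 arrays, 1 from each of 3 occasions on which the whole experiment was done, so that 12 arrays were compared. The groups are named mimic, mimic control, inhibitor and inhibitor control, and all were grown in low-glucose medium. A single carcinoma line stands for the hepatocyte here, and there was no untransfected group.

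Complexes III and IV carry electrons from ubiquinol through cytochrome c to oxygen and pump protons across the inner mitochondrial membrane, and complex V (ATP synthase) uses that proton gradient to make ATP. Most of their subunits are encoded in the nucleus and imported, and several complex IV subunits exist as a widely expressed form and a form restricted to heart, muscle, lung or testis. In liver, the chain supplies ATP for gluconeogenesis and the urea cycle and reoxidises the cofactors reduced in fatty acid oxidation.

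The transfected sequence is shown because the mimic presents it and the inhibitor pairs with it. The seed, bases 2 to 8 from the 5′ end, is in capitals.
hsa-miR-1908-5p: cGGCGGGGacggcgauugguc
RefSeq (GRCh38.p14) places this 21-base mature miRNA at chr11:61815209-61815229 on the minus strand. Counting it, 4 mature miRNAs of RefSeq share the seed, the others being hsa-miR-10396b-5p, hsa-miR-663a and hsa-miR-6787-5p. A message pairing with the whole seed would carry CCCCGCC.

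All values are the deposited log2 values, and a difference of 1 is a factor of 2. The median over all probe sets was between 4.99 and 5.15 on each array. The spread was smallest on the mimic array of occasion 3 (SD 1.95) and the mimic control array of occasion 3 (SD 1.98), and was 2.02 to 2.06 on the other arrays. Hepatocyte markers ALB and AFP lay between 12.7 and 13.2 on all arrays, and all 8 named hepatocyte markers were above the array median throughout. The probe set of MIR1908 itself lay between 6.68 and 7.12, with overlapping groups, which does not check delivery of the short mature oligonucleotides. In total RNA, a lower value can stand for fewer copies per cell or fewer cells that make the message.

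Of the 27 genes, 22 were above the array median on all 12 arrays. COX6B2, COX7B2 and COX8C, testis forms of complex IV subunits, were below the median on every array. COX7A1, the heart and muscle form of subunit 7A, was above it on 5 arrays and COX6A2, the heart and muscle form of subunit 6A, on 11. COX6A1, the widely expressed form of subunit 6A, has 2 probe sets that disagree in level. The brighter, used here, lay between 11.8 and 12.1, and the other between 3.04 and 4.40. Which locus the brighter one reads was not established here, and it may not be COX6A1 on chromosome 12. UQCRH, the hinge protein of complex III, and UQCRHL, its near-identical intronless copy, can share signal, so their values are uncertain as gene-level measures.

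With the mimic, none of the 26 genes from the platform table passed the adjusted test. ATP5D is described apart, without a test of that contrast. Among the 26 genes from the platform table, 12 were lower and 14 higher than the mimic control, with a median log2 difference of 0.01 against 0.00 over all 53617 probe sets. One gene, COX8C, reached an unadjusted p under 0.05, where 4.61% of all probe sets did. The lowest adjusted p among the 26 was 0.97 (limma, Benjamini-Hochberg over all probe sets), and 0.0149% of all probe sets passed that threshold. The differences ran from -0.36 for COX8C to 0.28 for COX4I2, the lung form of subunit 4. All 26 intervals at the 95% level lay within 1 log2 unit of no difference, and 11 of them within 0.5. They come from the model without the occasion, which could not resolve smaller shifts with 3 arrays a group. Its standard errors ran from 0.13 to 0.35. With the occasion as a replicate block they ran from 0.11 for COX7C to 0.23 for COX7A1.

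**Figure D1:**
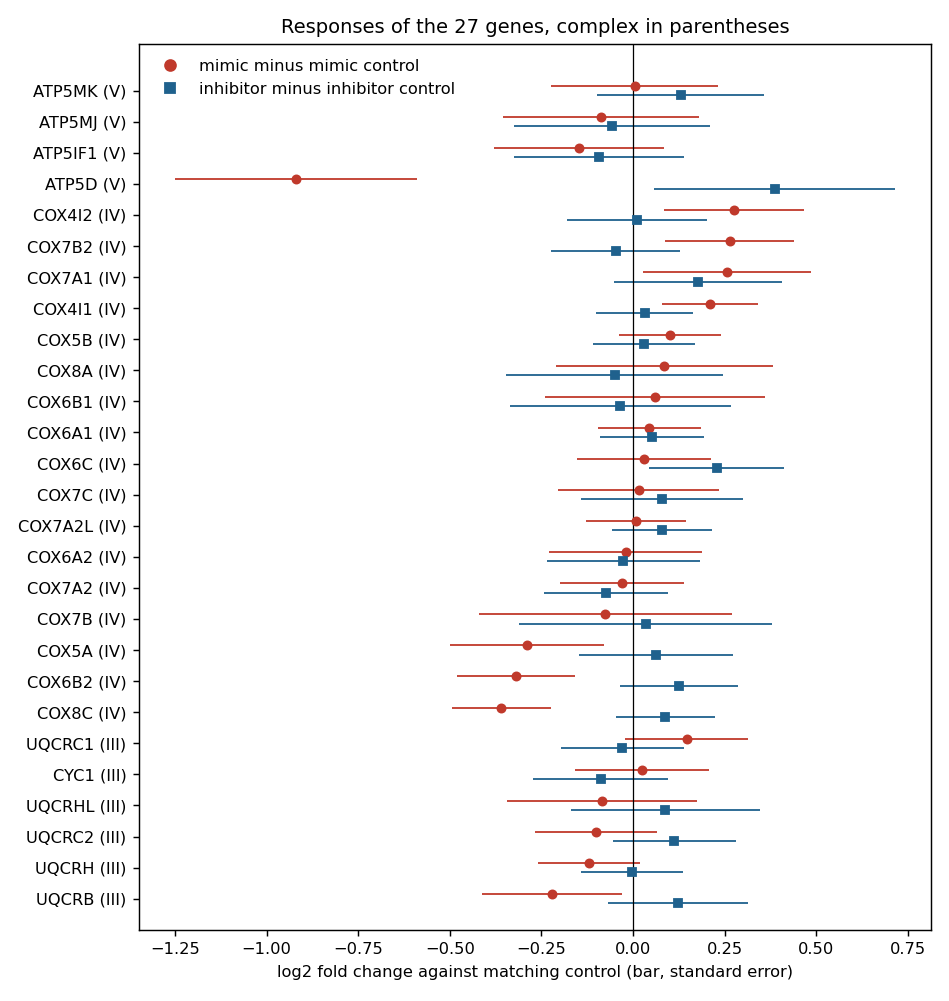
Log2 fold change of each of the 27 genes with the mimic (circles) and with the inhibitor (squares) against the matching control; bars are standard errors from the model of 12 arrays. The 26 genes from the platform table lie between -0.36 and 0.28, and ATP5D, which the study had picked partly on these arrays, lies at -0.92 (mimic) and 0.39 (inhibitor).

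ATP5D, listed as ATP5F1D in RefSeq and located on chromosome 19, encodes the delta subunit in the central stalk of ATP synthase. On occasions 1, 2 and 3 it read 7.75, 8.48 and 7.17 with the mimic and 8.92, 8.87 and 8.37 with the mimic control. The mimic array was the lower one on each occasion, with log2 differences of -1.17, -0.39 and -1.20, although the group ranges overlapped. The mean difference of -0.92 (SE 0.33) has no test here, because the study chose the gene partly on this contrast.

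The inhibitor contrast was not used to choose ATP5D. Its values were 9.18, 8.84 and 8.49 with the inhibitor and 8.87, 8.51 and 7.97 with the inhibitor control. Each inhibitor array exceeded the control array of its occasion, by 0.31, 0.33 and 0.52, but the ranges overlapped. The log2 difference of 0.39 (SE 0.33, n = 3) did not pass the limma test, with an unadjusted p of 0.265 and a 95% interval from -0.33 to 1.11. With the occasion as a replicate block, the unadjusted p was 0.0933 and the adjusted p 0.98. The other 3 genes of complex V, by contrast, differed little with the mimic. ATP5IF1, the protein that blocks the synthase when the gradient collapses, had a log2 difference of -0.15 (SE 0.23). ATP5MJ, a small membrane subunit, had one of -0.09 (SE 0.27), and ATP5MK, a small subunit involved in pairing synthase monomers, one of 0.00 (SE 0.23). Whether ATP5D differs from these 3 genes was not tested.

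COX8C, the testis form of the smallest complex IV subunit, was the 1 gene at an unadjusted p under 0.05. Its log2 values were 3.31, 3.07 and 3.37 with the mimic and 3.57, 3.67 and 3.60 with the mimic control, without overlap. The difference of -0.36 (SE 0.14) had an unadjusted p of 0.022 and an adjusted p of 0.97 in limma. Both inhibitor arms lay at the mimic's level, with 3.18, 3.41 and 3.41 for the inhibitor and 3.29, 3.12 and 3.34 for the inhibitor control, which left the mimic control as the group that stood apart. Against the inhibitor control, the mimic control was higher by 0.36 (SE 0.14, unadjusted p = 0.0206, adjusted p = 0.91, limma). These comparisons share the mimic control arrays, and COX8C was below the array median on every array. Without the mimic array of occasion 2 the limma difference was -0.27 (unadjusted p = 0.0948), and without the mimic control array of that occasion -0.33 (unadjusted p = 0.0637). In a limma model of the compared arrays alone the unadjusted p was 0.0527.

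COX5A, a nuclear subunit on the matrix side of complex IV, was lower with the mimic on all 3 occasions. It read 10.15, 10.29 and 9.58 with the mimic and 10.41, 10.38 and 10.10 with the mimic control, in overlapping ranges. The difference of -0.29 (SE 0.21) had an unadjusted p of 0.193, and with the occasion as a replicate block an unadjusted p of 0.0333 and an adjusted p of 0.60 (limma). With the inhibitor COX5A read 10.53, 10.62 and 10.19 against 10.52, 10.53 and 10.11, a difference of 0.06 (SE 0.21).

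COX4I1, the widely expressed form of the regulatory subunit 4, lay the other way. Its values were 11.32, 11.43 and 11.16 with the mimic and 10.98, 11.16 and 11.15 with the mimic control. The groups did not overlap, by the narrow margin between the mimic of occasion 3 (11.1628) and the mimic control of occasion 2 (11.1555). The difference of 0.21 (SE 0.13) had an unadjusted p of 0.138 in limma. With the inhibitor control COX4I1 read 11.24, 11.40 and 11.28, and the mimic control had the lowest mean of the 4 groups. The mimic control differed from the inhibitor control by -0.21 (SE 0.13, unadjusted p = 0.135, adjusted p = 0.999, limma). COX8C and COX4I1 were the 2 of 26 genes whose mimic and control arrays did not overlap, against 8.86% of all probe sets. In all, 4 of the 26 were lower with the mimic on all 3 occasions and 5 were higher, where 15.9% and 14.1% of all probe sets were.

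**Figure D2:**
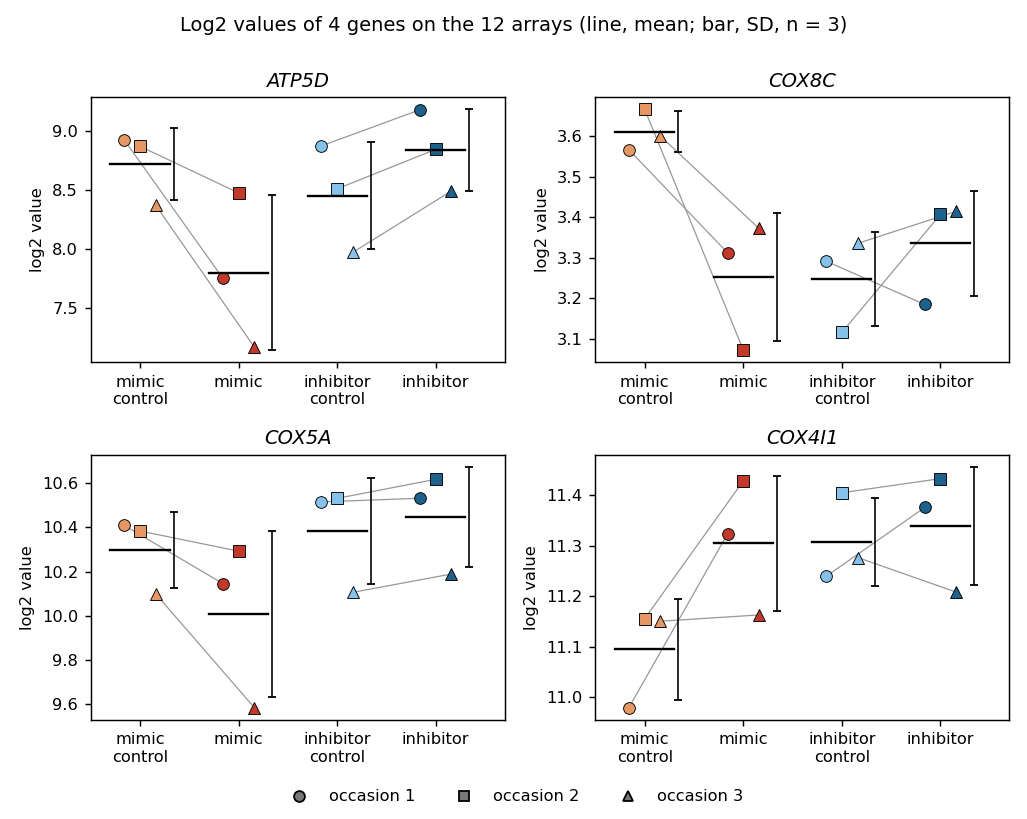
Log2 values of ATP5D, COX8C, COX5A and COX4I1 on each array; symbols mark the occasion, grey lines join arrays of 1 occasion, black lines are group means and bars the SD of 3 arrays. For ATP5D and COX5A each mimic array is below the mimic control array of its occasion, and COX8C is highest in the 3 mimic control arrays, between 3.57 and 3.67.

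The subunits of complex III showed small differences with the mimic in both directions. CYC1, the cytochrome that hands electrons to cytochrome c, read 7.87, 8.28 and 7.88 with the mimic and 7.84, 8.12 and 8.00 with its control, a difference of 0.02 (SE 0.18). The core proteins UQCRC1 and UQCRC2 had differences of 0.15 (SE 0.17) and -0.10 (SE 0.17). UQCRB, a subunit at the ubiquinone-binding site, had the lowest value of the complex, -0.22 (SE 0.19, unadjusted p = 0.269, limma). It read 6.15, 5.90 and 5.35 with the mimic and 6.08, 5.95 and 6.03 with the control, so the difference came from occasion 3. Without both mimic-arm arrays of that occasion, a choice made after seeing the data, it was 0.01.

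Among complex IV genes, the widely expressed forms COX4I1, COX6A1, COX6B1, COX7A2, COX7B and COX8A had mimic differences from -0.08 to 0.21 with a median of 0.05 (0.06 without COX6A1). The forms restricted to certain tissues, COX4I2, COX6A2, COX6B2, COX7A1, COX7B2 and COX8C, had differences from -0.36 to 0.28 with a median of 0.12. COX6B2 read 4.16, 3.66 and 3.87 with the mimic and 4.06, 4.23 and 4.36 with the control, overlapping on occasion 1, for a difference of -0.32 (SE 0.16, unadjusted p = 0.0711, limma). COX4I2, COX7A1 and COX7B2 had differences of 0.28 (SE 0.19), 0.26 (SE 0.23) and 0.26 (SE 0.18). That of COX7B2 was 0.06 without both mimic-arm arrays of occasion 3. COX7A2L, which takes part in joining complexes III and IV rather than in electron transfer, had a difference of 0.01 (SE 0.14).

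With the inhibitor, none of the 26 genes reached an unadjusted p under 0.05, where 2.92% of all probe sets did (limma). Under the replicate block the count was also 0, against 4.51%. At the adjusted threshold the count was 0 as well, against 0.00187%. The inhibitor arrays were lower for 10 genes and higher for 16, with a median of 0.03 and differences from -0.09 for ATP5IF1 to 0.23 for COX6C. COX6C, a small subunit of complex IV, read 5.84, 5.90 and 5.91 with the inhibitor and 5.76, 5.71 and 5.50 with its control. It was the 1 gene whose arrays did not overlap (8% of all probe sets did not), and its difference of 0.23 (SE 0.18) had an unadjusted p of 0.238. On all 3 occasions 2 genes were lower and 6 higher, against 13.5% and 13.9% of all probe sets.

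The control arms were compared to show how far 2 control oligonucleotides lay apart in these genes. Their differences ran from -0.48 for COX8A to 0.36 for COX8C. The mimic control was below the inhibitor control for 20 of the 26 genes, with a median of -0.07, against 0.00 over all probe sets. COX8C was the 1 gene at an unadjusted p under 0.05, where 5.28% of all probe sets were, and none passed the adjusted test (0.00373%, limma). On all 3 occasions 7 genes were lower and 2 higher, against 15.1% and 15.2%, and 2 genes, COX8C and COX4I1, did not overlap, against 10.5%. COX8A, the widely expressed form of subunit 8, had the widest one. It read 10.50, 10.40 and 9.62 in the mimic control and 10.43, 11.03 and 10.48 in the inhibitor control, a difference of -0.48 (SE 0.30) with an unadjusted p of 0.135. With the occasion as a replicate block, COX8A (adjusted p = 0.48), COX8C (adjusted p = 0.46) and CYC1 (adjusted p = 0.56) were at an unadjusted p under 0.05 in limma. That is 3 of 26 genes, against 8.71% of all probe sets.

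The difference between the mimic response and the inhibitor response was negative for 15 genes and positive for 11. COX8C was at an unadjusted p of 0.0389 and an adjusted p of 1.00, with a difference of -0.45 (SE 0.19), where 4.24% of all probe sets were at p under 0.05. With the replicate block COX8C was again the 1 gene at that threshold, against 7.02%. For ATP5D the difference of responses was -1.31 (SE 0.47), given without a test.

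The adjusted calls among these genes lay between occasions, and none lay between treatments (limma). In a model of 4 groups and 3 occasions, 13 of the 26 genes differed between occasions at an unadjusted p under 0.05, against 22.7% of all probe sets, 25.5% of named genes and 29.7% of probe sets above the median level. At the adjusted threshold 9 of 26 passed, against 4.97%, 7.21% and 8.11% (limma F test). That F test asks whether any of the 3 occasions differed, and not whether occasion 3 differed from occasion 1. Of all probe sets, 3.28% both passed and were lower on occasion 3 than on occasion 1. The 9 genes were COX6B1, ATP5MJ, COX7B, COX7C, ATP5MK, ATP5IF1, COX5A, COX8A and UQCRHL, and each was lower on occasion 3 than on occasion 1. Over the 26 genes, 20 had a lower mean on occasion 3 than on occasion 1, with a median log2 difference of -0.22, where all probe sets had 0.05 and named genes -0.02.

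COX6B1, a subunit facing the intermembrane space, had the lowest p of the 26. In the order mimic control, mimic, inhibitor control, inhibitor it read 8.00, 8.18, 8.11 and 8.07 on occasion 1, and 7.99, 8.10, 8.27 and 8.15 on occasion 2. On occasion 3 it read 7.35, 7.25, 7.49 and 7.55. Each array of occasion 3 was below all 8 arrays of the earlier occasions, whatever the transfected oligonucleotide. The mean was lower by 0.68 on occasion 3 than on occasion 1 (log2 difference -0.68). The limma F test over all 3 occasions gave an adjusted p of 0.00787.

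COX7B, a subunit needed for assembly of complex IV, read 7.00, 6.99, 7.23 and 7.24 on occasion 1 in the same order of groups. On occasion 2 it read 6.93, 7.26, 7.24 and 7.40, and on occasion 3 6.53, 5.99, 6.51 and 6.45. The mimic array of occasion 3 was the lowest, but the other 3 arrays of that occasion were also below all earlier ones. The log2 difference between occasions 3 and 1 was -0.74, and the F test over all 3 occasions gave an adjusted p of 0.0157 (limma).

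The 3 genes of complex V from the platform table all passed. ATP5MJ read 6.69, 6.48, 6.66 and 6.59 on occasion 1, 6.67, 6.74, 6.80 and 6.67 on occasion 2, and 6.02, 5.90, 6.14 and 6.18 on occasion 3, again without overlap. Its log2 difference between occasions 3 and 1 was -0.54, with an adjusted p over all 3 occasions of 0.013 (limma F test). For ATP5MK the means were 8.48 ± 0.06, 8.50 ± 0.07 and 8.01 ± 0.16 on occasions 1, 2 and 3 (SD, n = 4), and for ATP5IF1 6.75 ± 0.13, 6.78 ± 0.09 and 6.28 ± 0.18. ATP5D had 8.68 ± 0.63, 8.67 ± 0.21 and 8.00 ± 0.60, a log2 difference of -0.68 between occasions 3 and 1. Its adjusted p over all 3 occasions was 0.0749 (limma F test).

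**Figure D3:**
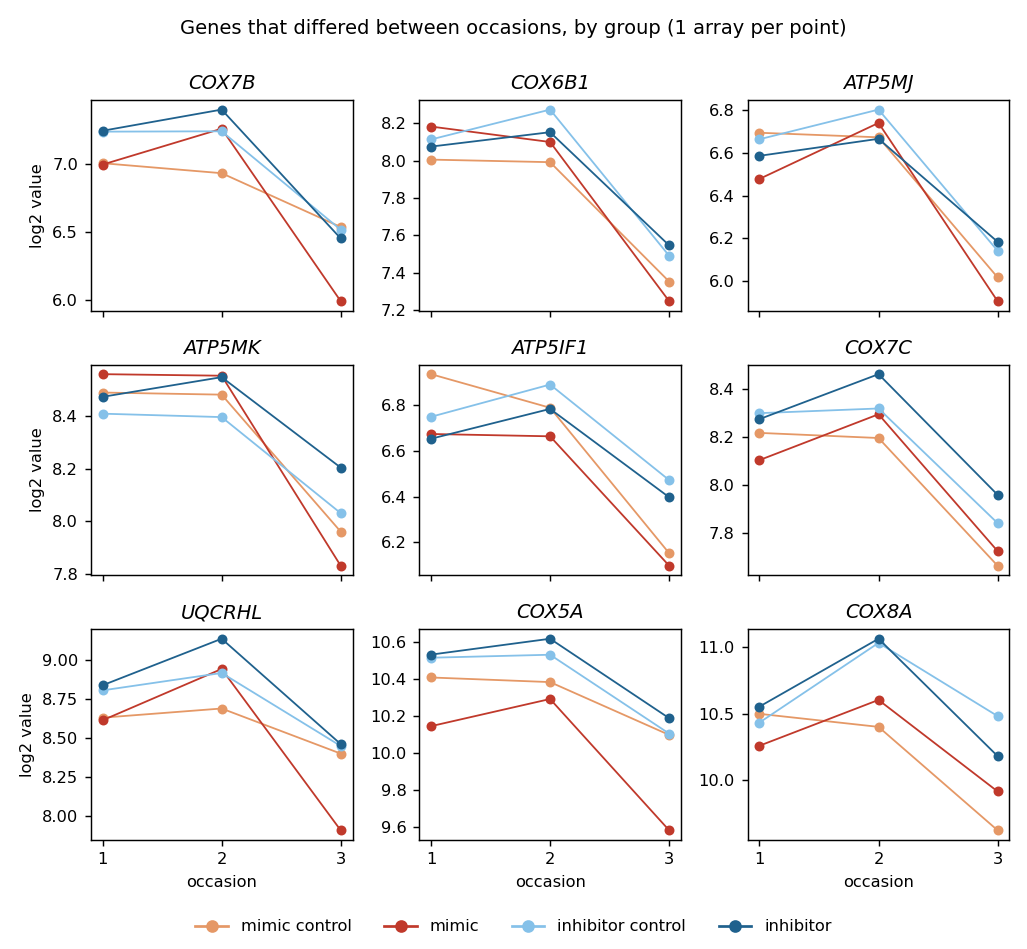
Log2 values of the 9 genes that passed the adjusted test between occasions, by occasion, with 1 line per group and 1 array per point. The lines drop from occasion 2 to occasion 3 in all 4 groups for each gene. For COX5A, COX7B and UQCRHL the mimic array of occasion 3 is set apart below the others.

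In complex IV, 5 of 17 genes passed and in complex III 1 of 6, the intronless copy UQCRHL. UQCRH, with which it can share signal, had a log2 difference of 0.01 between occasions 3 and 1. Its adjusted p over all 3 occasions was 0.998 (limma F test). All 6 widely expressed forms of complex IV subunits had a lower mean on occasion 3 than on occasion 1, with a median of -0.31 (-0.39 without COX6A1), and 3 of them passed (COX6B1, COX7B and COX8A). Among the 6 tissue-restricted forms 2 were lower, with a median of 0.15, and none passed (limma). The difference between these classes was not tested, and they also differ in level. The restricted forms averaged 3.36 (COX8C) to 5.54 (COX4I2), and the widely expressed forms 6.90 (COX7B) to 11.97 (COX6A1, brighter probe set). The part of signal level, and of the narrower spread of the mimic-arm arrays of occasion 3, was not tested. COX6A1, by its brighter probe set, and COX4I1 had log2 differences between occasions 3 and 1 of -0.05 and -0.03. Their adjusted p-values over all 3 occasions were 0.48 and 0.53 (limma F test). Being lowest on occasion 3 in each of the 4 groups was seen for 10 of the 26 genes, against 7.87% of all probe sets and 14.2% of those above the median level.

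The adjusted calls between occasions rested on all 12 arrays. Without both mimic-arm arrays of occasion 3, the arrays with the smallest spread, 0 of 26 genes passed the adjusted limma test (0.114% of all probe sets did), while 12 of 26 were at an unadjusted p under 0.05 (15.7% of all probe sets). Leaving out 1 array at a time gave 1 to 4 adjusted calls, the lowest without the mimic array of occasion 3, while the share over all probe sets was between 1.47% and 3.95%. In the 6 arrays of the inhibitor arms alone, 6 of 26 were at an unadjusted p under 0.05 (11.5% of all probe sets), 0 passed adjustment, as did 0 of all probe sets, and the median difference between occasions 3 and 1 was -0.11. These 3 ways of leaving out arrays were chosen after seeing the data.

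The share of low values was greatest on the mimic array of occasion 3. That array was the lowest of the 12 for 12 of the 26 genes. On average the 26 deviated from their own means by -0.27 there, all named genes by -0.09 and probe sets above the median level by -0.08. The members' average deviation was -0.19 on the mimic control, -0.13 on the inhibitor control and -0.08 on the inhibitor array of that occasion. On occasion 2, the inhibitor array was the highest for 10 genes, with an average deviation of 0.20, against 0.02 over named genes. How many of all probe sets were lowest or highest on these arrays was not counted. What differed between the occasions is not stated, and culture, extraction and array handling cannot be told apart here.

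**Figure D4:**
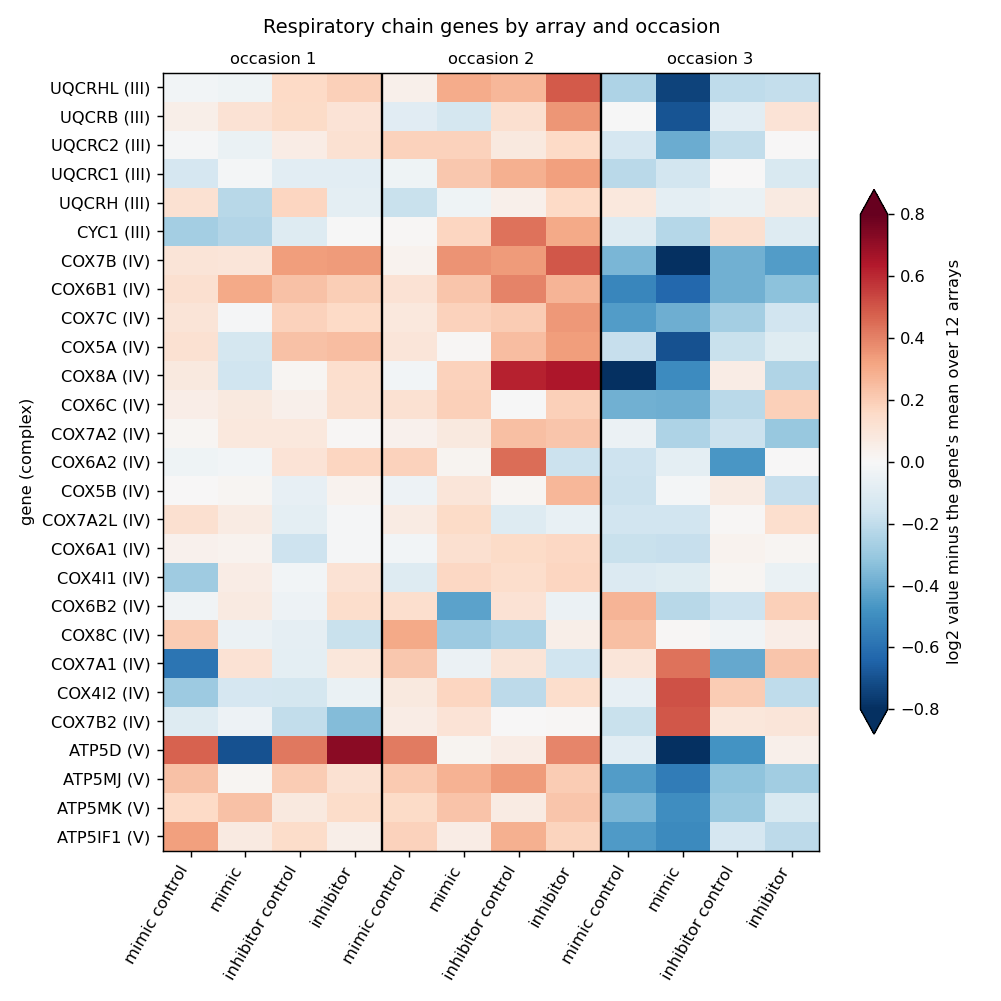
Log2 value of each of the 27 genes on each array minus that gene's mean over 12 arrays, with arrays ordered by occasion and genes by complex (III, IV, V) and by their difference between occasions 3 and 1. Blue cells collect in the 4 columns of occasion 3, most of all in its mimic array. Of the tissue-restricted forms, COX7A1, COX4I2 and COX7B2 are red in that array, while COX6B2 and COX6A2 lie below their means and COX8C near its own.

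Genes of the other lists also passed the adjusted test between occasions, where 4.97% of all probe sets and 7.21% of named genes did. Of 7 named Krebs cycle genes all had a lower mean on occasion 3 than on occasion 1, and 3 (CS, IDH3G and OGDH) passed, with log2 differences of -0.72, -0.52 and -0.82. Of 37 assembly factors 2 passed, the copper chaperone COX17 (-0.62) and COA3 (-0.69). Of 12 mitochondrial mass genes 3 passed, namely VDAC1 (-0.63), VDAC3 (-0.45) and TOMM40 (-0.31), while the chaperone HSPA9 had 0.50. The adjusted p of HSPA9 over all 3 occasions was 0.0702 (limma F test). Of the marker lists, 2 of 8 hepatocyte markers passed, APOA1 (-0.66) and TTR (-0.52), while APOA2 (0.01) and APOB (0.02) did not. Of 4 cholangiocyte markers 2 passed, EPCAM (-0.83) and SOX9 (-0.51), while KRT7 had 0.24. Of 3 leukocyte markers 1 passed, CD68 (-0.72), and of 3 endothelial markers 0 (limma). All of these passed in the model of 12 arrays, and the part of the narrower value spread of the 2 mimic-arm arrays in this pattern was not tested for them.

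Promoters are shown for members that moved together between occasions, since NRF-1, YY1 and ETS family factors such as GABP are known regulators of nuclear respiratory genes. RefSeq windows from 250 bases before to 50 after the gene start (GRCh38.p14) were matched for 20 of the 27 genes. Both strands were searched for GCGCNTGCGC (NRF-1), AAGATGGCG (YY1) and CCGGAAG (ETS). The ETS letters were in 7 of the 20 promoters, against 10.7% of all 27305 promoters, those of NRF-1 in 3, against 6.28%, and those of YY1 in 1, against 1.85%. Short stretches upstream of the gene start follow, on the strand of the gene, with the matched letters or their reverse complement in capitals.
COX6B1, ETS, chr19:35648303-35648322, plus strand: tctctcagCTTCCGGctggt
COX8A, ETS, chr11:63974594-63974619, plus strand: ctccagaaCTTCCGGccagcgcagcc
ATP5MK, ETS, chr10:103396616-103396643, minus strand: caattcttCCGGAAGtgtgggcgggctc
ATP5MJ, NRF-1, chr14:103921530-103921554, minus strand: ccctgcgcGCGCCTGCGCgctcggt
COX6A1, ETS, chr12:120438089-120438112, plus strand: cacttccgCTTCCGGcgctgcggc
UQCRC1, NRF-1, chr3:48609674-48609701, minus strand: acggtactGCGCCTGCGCcgcgaccgcc
COX6B1, COX8A, ATP5MK and ATP5MJ passed the adjusted test between occasions, and COX6A1, by the probe set in doubt, and UQCRC1 did not. The ETS letters were in 3 of the 8 promoters of genes that passed and in 4 of the other 12, and those of NRF-1 in 1 and 2. A match describes letters only and no binding was measured.

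Genes that build or serve the chain were followed from lists drawn up for this purpose. Of 48 assembly factors 37 were named on the array, and 23 of them were lower with the mimic. The median was -0.09, against -0.03 over named genes. SDHAF2, which helps insert the flavin of complex II, had a log2 difference of -0.50 (SE 0.17, unadjusted p = 0.012, adjusted p = 0.92), with means of 7.99 ± 0.30 and 8.49 ± 0.14 (SD, n = 3). NUBPL, an iron-sulfur factor for complex I, had -0.30 (SE 0.13, unadjusted p = 0.037). These were the 2 of 37 at p under 0.05, near the share of 4.61% of all probe sets, and neither passed adjustment (limma). With the inhibitor 29 of the 37 were higher than the control, with a median of 0.11 against 0.02 over named genes, and 0 had an unadjusted p under 0.05.

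Of 20 genes used as measures of mitochondrial mass 12 were named, and the mimic mean was below the control mean for 9. The median was -0.21, against -0.03 over named genes. PHB2, a scaffold protein of the inner membrane, had means of 8.55 ± 0.25 (mimic) and 9.13 ± 0.18 (mimic control). TOMM40, the pore of the outer membrane import complex, had 8.21 ± 0.51 and 8.95 ± 0.25 (SD, n = 3). The log2 differences were -0.58 (SE 0.17, unadjusted p = 0.00578, adjusted p = 0.85) for PHB2 and -0.74 (SE 0.25, unadjusted p = 0.013, adjusted p = 0.92) for TOMM40 in limma. They were the 2 of 12 at an unadjusted p under 0.05, against 4.61% of all probe sets. With the occasion as a replicate block VDAC1 and TOMM22 joined them, which made 4 of 12 against 7.75%, and none passed adjustment (lowest adjusted p = 0.18). On all 3 occasions 8 of the 12 were lower with the mimic, against 15.9% of all probe sets and 3042 of 14884 named genes. None of the 9 named of 21 genes for mobile carriers and coenzyme Q, the 7 of 13 for the Krebs cycle or the 5 of 17 for mitochondrial biogenesis was at an unadjusted p under 0.05 with the mimic (limma). No gene of mitochondrial DNA was named in the table, so the mitochondrially encoded subunits were not analysed here.

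Of the 8 named hepatocyte markers 6 were higher with the mimic and 2 lower, TTR (-0.21) and APOB (-0.07). APOA2 (0.35, adjusted p = 0.94) and FGB (0.41, adjusted p = 1.00) were the 2 of 8 at an unadjusted p under 0.05, against 4.61% of all probe sets (limma). KRT7 was below the array median on every array, while the other 3 cholangiocyte markers were above it on every array. Of the endothelial and leukocyte markers, 1 of 3 in each list was above the median on all arrays. The part of these markers in the values of the respiratory chain genes was not tested.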

How the data were processed

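Total RNA of 12 HuH-7 cultures was hybridised to HuGene-2_0-st arrays. The deposited log2 values, 1 per probe set, were made by the authors in Affymetrix Expression Console (version and settings not given in the sources used here) and were used without further scaling. Numbers of arrays limit the precision.

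A linear model of 4 groups was fitted to all 53617 probe sets in limma 3.58.1 (R 4.3.3), with Benjamini-Hochberg adjustment over all of them. The occasion was tested in an additive model with the groups. The platform annotation names 16098 probe sets with 1 symbol each; the probe set with the highest mean stood for a gene. ATP5D was found by the probe set the study lists for it. Members, lists and the rule for named genes (ATP5D, CYC1, the most extreme mimic differences per complex, and genes at an unadjusted p under 0.05) were chosen with earlier results of these data known.

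The submitters describe replicate numbers as separate occasions of the experiment. Deviations from group means correlated at a median of 0.24 between arrays sharing a number (18 pairs) and at -0.14 between the rest (36 pairs). Such deviations cancel out within a group, so the negative value is partly fixed by the positive one. The number was used as a block among the alternatives. Others were quantile normalization, a common median, no dim probe sets, models of the compared arrays alone, an intensity trend combined with robust priors, the methods' two-tailed test, the mean of a gene's probe sets and leaving out arrays. Data were simulated for the mimic comparison over all probe sets, with no effect of occasion and with independent noise. The model called 93 of 100 changes of 1 log2 unit and 99 of 100 of 2 at an unadjusted p under 0.05. After adjustment it called 41 and 85, counts that depend on how many changes were planted. These counts do not give the power for the genes described here.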

Additional observations from a re-analysis of the deposited data

Results flagged for a closer look

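The mimic and inhibitor responses of 4 genes are listed here for a closer look, and none differed at an adjusted p under 0.05 where tested. COX8C had a log2 difference between the responses of -0.45, at an unadjusted p of 0.0389 and an adjusted p of 1.00 in limma. ATP5D had one of -1.31, being lower with the mimic and higher with the inhibitor on all 3 occasions; this was not tested, since the study chose the gene on the mimic contrast. COX5A (-0.35) and UQCRC2 (-0.21) had the same opposite directions on all 3 occasions, and the limma test of the difference itself gave an unadjusted p of 0.259 and 0.385. On occasion 2 the UQCRC2 arrays of mimic and mimic control both read 10.91. Opposite directions on all occasions were seen for 5% of all probe sets, and for 2 of the 26 genes from the platform table.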

How the results depend on the processing

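Of the 26 genes from the platform table, no gene in any treatment comparison had an adjusted p under 0.05 under any alternative run (limma). The counts at an unadjusted p under 0.05 were small, so 1 gene moved them. For the mimic the count of 1 became 2 with the occasion as a replicate block (COX8C and COX5A). There the share of all probe sets rose from 4.61% to 7.75%. The count became 0 in a model of the compared arrays alone, where 1924 of 53617 probe sets were called. With single arrays left out it ranged from 0 to 3, against 2274 to 3235 of all probe sets. The 3, without the mimic array of occasion 1, were COX8C, COX6B2 and COX4I2, where 2710 of all 53617 probe sets were called. For the controls the count of 1 became 3 with the replicate block (8.71% of all probe sets). When single arrays were left out it ranged from 0 to 1, against 2250 to 3413 of 53617 probe sets. For the difference of responses the count of 1 became 2 with quantile normalization (2373 of 53617 probe sets). With an intensity trend and robust prior it became 0 (2257 of all probe sets). When single arrays were left out it ranged from 0 to 2, against 1847 to 3014 of all probe sets. Without dim probe sets, which leaves 22 of the genes and not COX8C, these 3 counts were 0. Of the 26809 probe sets left, 1500, 1853 and 1198 were called for the mimic, the controls and the difference of responses. The inhibitor count was 0 throughout, against 2.92% of all probe sets in the model of 4 groups.

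Between occasions, the 9 adjusted calls (4.97% of all probe sets) became 4 with quantile normalization (4.41%), 12 with an intensity trend and robust prior (8.07%), 9 with a common median (5.02%) and 1 to 4 without single arrays (1.47% to 3.95%). They became 0 without both mimic-arm arrays of occasion 3 (0.114%), in the inhibitor arms only and in the mimic arms only (both 0%). The 13 unadjusted calls became 6 in the inhibitor arms only (11.5% of all probe sets) and 8 in the mimic arms only (17.1%), from 22.7% in the 12 arrays. These last settings and the single arrays left out were chosen after seeing the data. The cause of these changes was not tested. The difference of responses was not run in models of the compared arrays alone or in the two-tailed test.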
